A study of Mus musculus with 16 samples.

Results

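Mouse hearts that carried a TRAF2 transgene were set against hearts that did not, over both settings of a further transgene, IkBaDN. All 16 arrays of the series entered the comparison. The 8 carrier arrays have LCTraf2 in their titles and the 8 non-carrier arrays do not. The carriers were 4 TRAF2LC mice (LCTraf2) and 4 double transgenic mice with both transgenes (LCTraf2DNIkB), and the non-carriers were 4 littermate controls and 4 IkBaDN mice (DNIkB). Each TRAF2 genotype therefore has its own partner without TRAF2: TRAF2LC is set against control, and double transgenic against IkBaDN. RNA came from the left ventricle of male mice, with 1 single-colour Illumina array per heart. The labels name both transgenes with Myh6, the gene of alpha myosin heavy chain, and its promoter is active in cardiomyocytes. The sources used here do not give the age of the mice, or say whether a genotype came from 1 transgenic line or several.

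TRAF2 is an adapter that sits below receptors of the tumour necrosis factor family. It recruits ubiquitin ligases of the cIAP family, which help to switch on the canonical branch of NF-kB and, together with TRAF3, keep the kinase NIK low and so hold back the non-canonical branch. IkBa binds NF-kB and keeps it out of the nucleus until IkBa is degraded. In the heart, signals through TRAF2 are known for protection of cardiomyocytes at low levels and for inflammation and remodelling when they persist.

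Values are normalized log2 intensities, so a difference of 1 is a doubling. A probe was tested when its detection p was under 0.01 on at least 4 of the 16 arrays, which left 9449 probes for 6902 named genes. The difference given for carriers is that of a limma model with 1 term for TRAF2 and 1 for IkBaDN. A probe is called when its p, adjusted by Benjamini-Hochberg over all 9449 probes, lies under 0.05. The differences within each background come from a limma fit of the 4 genotype means. Their errors pool the spread of all genotypes and may be too small for a genotype that spreads more, as TRAF2LC does for interferon genes, and too large for the others. The median standard error was 0.112 for carriers against non-carriers and 0.157 within 1 background. At these errors, differences under about 0.24 and 0.33 do not reach even an unadjusted p under 0.05. A call needs a smaller p, so differences well above these values could also be missed. Among the probes called in carriers against non-carriers, the smallest difference was 0.48 in size.

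Mean deposited signals per array lay between 129 and 375, and 7948 to 9397 probes were detected per array. The cardiomyocyte genes Myh6, Myl2, Myl3 and Tnni3 were detected on 16 of 16 arrays. TRAF2LC replicate 4 stood apart from its group in immune genes, and IkBaDN replicates 2 and 3 had the lowest mean signals, 129 and 204. Beside the results that these arrays move most, values without them are given, over the probes tested with all arrays. The labels call the samples of a genotype separate replicates, without saying whether litters were shared.

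The transgenes themselves could not be read from the arrays. The Traf2 probe, detected on 14 of 16 arrays, had values of 5.50, 5.89 and 6.29 in carriers (lowest, median and highest, n = 8), against 5.65, 5.86 and 6.04 in non-carriers. The groups overlapped almost completely, with a difference of 0.06 ± 0.11 (SE, adjusted p = 0.903). The sources used here do not say where this probe lies relative to the transgene, so it checks no label. Scaling over the tested probes turned its difference to -0.04. Nfkbia, which encodes IkBa and is itself induced by NF-kB, had a difference of 0.16 ± 0.10 (adjusted p = 0.63). It was 0.35 ± 0.13 without IkBaDN (adjusted p = 0.316), where TRAF2LC lay above control without overlap, and -0.04 ± 0.13 with it (adjusted p = 0.989).

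Few probes were called between all carriers and all non-carriers. Of 9449 probes 7 were called (0.0741%), 4 higher and 3 lower. The interferon-induced genes Isg15 and Ifit3 and the scaffold gene Dlg2 rose, as did 1 unnamed probe, while Snai3, Lypd2 and 1700029P11Rik fell. An unadjusted p under 0.05 was reached by 944 probes, 521 higher and 423 lower. Counted over the brightest probe of each gene, 6 of 6902 genes were called (0.0869%). The mean of the 2 within-background differences, from the fit of the 4 genotype means, called 36 probes, 27 higher and 9 lower. The authors' scaled values called 9 probes, 8 higher and 1 lower, and scaling each array to its median over all probes called 105, of which 104 were higher. That scaling moved the median difference of all tested probes by 0.238, and scaling over the tested probes alone called 7, with 4 higher and 3 lower. The 7 calls also shrank with single arrays: 1 probe, Dlg2, was called without control replicate 1, without control replicate 2 or without double transgenic replicate 2, and 2 without control replicate 4. Without TRAF2LC replicate 1 there were 14 calls and without TRAF2LC replicate 4 there were 12. With TRAF2LC replicate 4 and IkBaDN replicates 2 and 3 all left out there were 15, 11 higher and 4 lower, which held 4 of the 7: Dlg2, Isg15, Ifit3 and the unnamed probe.

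A difference shared by both backgrounds was defined as a call in which the 4 arrays with TRAF2 and the 4 without do not overlap in either background, in the same direction. This held for 6 of 9449 probes (0.0635%), 4 higher and 2 lower. They are Dlg2, Isg15, Ifit3 and the unnamed probe among the increases, and Snai3 and 1700029P11Rik among the decreases. A larger set of 15 probes (0.159%) had no overlap between all 8 carriers and all 8 non-carriers, 8 higher and 7 lower, and 6 of these were called.

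Dlg2, which encodes a membrane-associated guanylate kinase scaffold known from synapses, gave the clearest separation. Its probe read 6.71, 6.60, 7.06 and 7.41 in TRAF2LC hearts, against 5.22, 4.79, 4.93 and 5.26 in controls. It read 7.70, 7.94, 7.81 and 7.73 in double transgenic hearts, against 4.61, 4.85, 4.77 and 4.76 in IkBaDN hearts. All 8 carriers lay above all 8 non-carriers, and the double transgenic hearts lay above every TRAF2LC heart. The probe was detected on 8 of 8 carrier arrays and on 0 of 8 non-carrier arrays. Its level in carriers was therefore at least 3.36-fold higher (adjusted p = 4.15e-07). This bound sets each non-carrier array at its detection limit, and other bounds are made the same way. A p given beside a bound belongs to the fitted difference, here 2.47 ± 0.17 on the log2 scale, which uses the undetected values. The Dlg2 probe passed the filter through carriers alone, so the filter favoured this direction. Dlg2 was called within each background, at least 2.57-fold higher in TRAF2LC against control (adjusted p = 3.71e-06) and at least 4.39-fold higher in double transgenic against IkBaDN (adjusted p = 7.06e-09). The difference between backgrounds itself had an unadjusted p of 8.25e-05 and did not pass (adjusted p = 0.11), but passed without TRAF2LC replicate 4 (adjusted p = 0.00961). It is measured in part against background signal. Dlg2 was called in all 31 alternatives in which its probe was tested, with adjusted p up to 0.00392. It was the 1 member called of 11 genes tested for PDZ scaffolds and the TSC22 family, whose median difference was 0.03. Its relative Dlg3 stood at 0.21 ± 0.17 (adjusted p = 0.714).

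**Figure D1:**
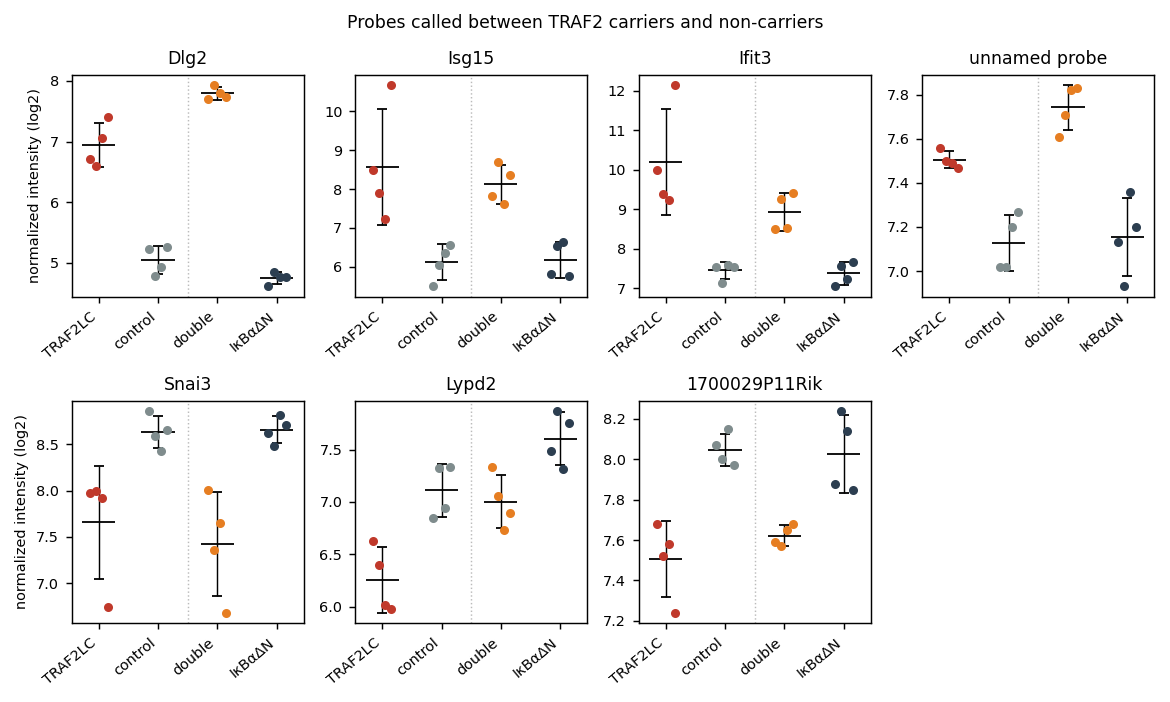
Normalized log2 intensity of the 7 called probes on each array. Points are single arrays, horizontal bars the mean and error bars the SD (n = 4), each TRAF2 genotype stands left of its partner without TRAF2, and the vertical axis differs between panels. Dlg2, detected on 0 non-carrier arrays, separates all carriers from all non-carriers, the high point of Isg15 and Ifit3 is TRAF2LC replicate 4, and Lypd2 is the 1 panel in which carriers and non-carriers overlap.

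Isg15 encodes a ubiquitin-like protein that interferon induces and that is attached to other proteins. It read 8.48, 7.90, 7.24 and 10.69 in TRAF2LC hearts, against 5.49, 6.05, 6.34 and 6.57 in controls. With IkBaDN it read 7.82, 8.70, 7.61 and 8.37 in double transgenic hearts, against 5.80, 6.52, 6.64 and 5.76 in IkBaDN hearts. Every carrier lay above every non-carrier, TRAF2LC replicate 4 being the highest. Isg15 rose 4.62-fold in carriers (log2 difference 2.21 ± 0.36, adjusted p = 0.0238), its probe being detected on 7 of 8 non-carrier arrays. Within the backgrounds the log2 difference was 2.47 ± 0.52 without IkBaDN (adjusted p = 0.0303) and 1.95 ± 0.52 with it (unadjusted p = 0.00165, adjusted p = 0.744). With TRAF2LC replicate 4 left out these were 1.75 ± 0.33 (adjusted p = 0.0204) and 1.94 ± 0.31 (adjusted p = 0.0406), so that Isg15 was called in both. The call was lost without control replicates 1, 2 or 4, IkBaDN replicate 4 or double transgenic replicate 2 (highest adjusted p 0.0708).

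Ifit3, which encodes an antiviral protein with tetratricopeptide repeats, was likewise high on every carrier array. It read 10.01, 9.38, 9.25 and 12.16 in TRAF2LC hearts, against 7.55, 7.13, 7.60 and 7.54 in controls. With IkBaDN it read 8.50, 9.27, 8.54 and 9.42 in double transgenic hearts, against 7.05, 7.56, 7.25 and 7.67 in IkBaDN hearts. All carriers again lay above all non-carriers. Ifit3 rose 4.42-fold (log2 difference 2.15 ± 0.34, adjusted p = 0.0238), with 2.75 ± 0.45 without IkBaDN (adjusted p = 0.00492) and 1.55 ± 0.45 with it (unadjusted p = 0.00326, adjusted p = 0.801). It was called in both backgrounds without TRAF2LC replicate 4, at 2.09 ± 0.24 (adjusted p = 0.000311) and 1.54 ± 0.23 (adjusted p = 0.0231). The call was lost without control replicates 1, 2 or 4 or double transgenic replicate 2 (highest adjusted p 0.0708). The mouse genome has a close copy of Ifit3, and the probe sequence was not used here, so the probe may read both.

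Rsad2, the antiviral protein viperin, had no overlap between carriers and non-carriers but did not pass. Its lowest, median and highest values were 9.19, 9.89 and 12.02 in carriers, against 8.13, 8.59 and 8.91 in non-carriers. The log2 difference was 1.46 ± 0.28 (adjusted p = 0.0692), with 1.84 ± 0.39 without IkBaDN (adjusted p = 0.0317) and 1.07 ± 0.39 with it (adjusted p = 0.85). Dhx58, an RNA sensor of the RIG-I family, was detected on 8 of 8 carrier arrays and 0 of 8 non-carrier arrays. It was at least 1.41-fold higher in carriers (adjusted p = 0.14), which did not pass. Both were called over carriers without TRAF2LC replicate 4, Rsad2 at 1.17 (adjusted p = 0.00165) and Dhx58 with an adjusted p of 0.007.

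The promoters of Isg15, Ifit3 and Rsad2 are shown because these interferon genes separated carriers from non-carriers in both backgrounds. Genes outside the interferon list, such as Dlg2 and Snai3, did so too. Interferon acts through a short element that reads TTTC, any 2 bases and TTTC, or GAAA, any 2 bases and GAAA on the other strand. The stretches below are the 170 bases just before the transcription start in RefSeq (GRCm38.p6), read 5′ to 3′ on the strand of the gene, with matches to these letters in capitals. That of Isg15 is chr4:156200819-156200988 on the minus strand, that of Ifit3 chr19:34583359-34583528 on the plus strand and that of Rsad2 chr12:26456453-26456622 on the minus strand.
Isg15: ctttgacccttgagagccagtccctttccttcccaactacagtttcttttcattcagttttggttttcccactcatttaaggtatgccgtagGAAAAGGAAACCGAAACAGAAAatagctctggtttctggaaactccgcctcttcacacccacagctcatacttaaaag
Ifit3: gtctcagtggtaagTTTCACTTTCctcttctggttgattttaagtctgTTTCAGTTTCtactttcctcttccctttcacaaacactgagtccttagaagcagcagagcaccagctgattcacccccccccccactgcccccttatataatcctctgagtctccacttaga
Rsad2: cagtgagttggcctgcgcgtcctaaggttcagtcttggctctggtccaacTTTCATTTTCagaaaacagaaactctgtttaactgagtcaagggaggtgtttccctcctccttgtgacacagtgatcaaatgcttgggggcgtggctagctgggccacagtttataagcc

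The promoter of Isg15 holds 3 overlapping matches, that of Ifit3 2 and that of Rsad2 1. Searched on both strands over 250 bases before to 50 after the start, the letters occur in 1131 of 32851 mouse promoters (3.44%). They occur for 206 of the 5628 tested genes with a promoter in the table (3.66%), and for 9 of the 17 tested interferon genes with one (52.9%). Among the genes described below, Irf7, Ifit2 and Lgals3bp have 0 matches, while Gbp2 and Igtp have 1 and Gbp3 and Irgm1 have 2. The interferon genes were listed as members of that pathway, so their share is no result of these arrays. A match is a run of letters and was not tested for binding.

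All 23 interferon genes tested, of 37 on the array, stood higher in carriers than in non-carriers, with a median log2 difference of 0.44. Isg15 and Ifit3 were called, and 12 of the 23 reached an unadjusted p under 0.05 in the upward direction, against 386 of all 6902 genes (5.59%). The lists of genes were chosen with earlier results of these arrays known, so their direction is a description. Over all genes the median was -0.00365, with 3386 of 6902 higher. Of the 23, 3 were detected on 0 non-carrier arrays and passed the filter through carriers alone, so the filter favoured their direction. Dhx58 and Irf7 are among them and count in the 12. With these 3 genes held at their bounds, the median was 0.41. The list median was 0.86 in TRAF2LC against control, where 23 of 23 genes were higher, and 0.07 in double transgenic against IkBaDN, where 13 of 23 were higher. With genes undetected on 1 whole side at their bounds (4 and 3 genes), these medians were 0.86 and 0.00. Without TRAF2LC replicate 4 the median was 0.22 over carriers, with 18 of 23 genes higher, and 0.45 in TRAF2LC against control, with 23 of 23 higher.

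The single arrays show how unevenly the interferon genes stood. Set against the mean of the non-carriers of the same background, the list median was 0.55, 0.74, 0.47 and 2.16 on TRAF2LC replicates 1 to 4, against -0.09 to 0.06 in controls. It was 0.13, 0.14, -0.07 and 0.16 on the double transgenic arrays, against -0.17 to 0.30 in IkBaDN hearts. TRAF2LC arrays all lay above controls, while the double transgenic arrays lay inside the IkBaDN range. The upper end of that range, 0.30, is IkBaDN replicate 2, and the other IkBaDN arrays had medians of -0.17, -0.17 and 0. Without IkBaDN replicate 2 the list median with IkBaDN was 0.10, with 15 of 23 genes higher. Over carriers it was then 0.54, with 23 of 23 higher. On TRAF2LC replicate 4, 23 of 23 genes were above the control mean. IkBaDN replicate 2, 1 of the arrays with the lowest signal, had 19 of 23 above the mean of its own group.

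**Figure D2:**
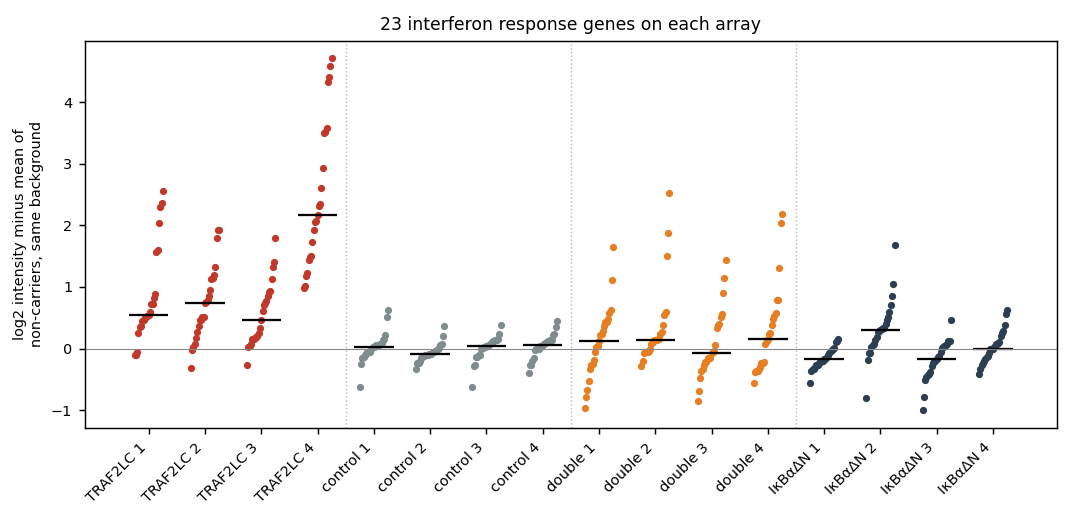
Each point is 1 of the 23 interferon genes on 1 array, as log2 intensity minus the mean of the non-carriers of the same background, and black bars are medians. TRAF2LC replicate 4 has a median of 2.16, the other TRAF2LC arrays lie between 0.47 and 0.74, and on each double transgenic array a few genes stand well above the rest.

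Other members of the interferon list had their larger differences without IkBaDN. Usp18, the protease that removes ISG15 from proteins, had values of 6.40, 7.14 and 10.28 in carriers (lowest, median and highest), against 5.69, 6.05 and 6.42 in non-carriers. Its lowest carrier lay just below the highest non-carrier, and the log2 difference was 1.52 ± 0.36 (adjusted p = 0.119). In TRAF2LC against control it was 2.49 ± 0.41 (adjusted p = 0.0049), and in double transgenic against IkBaDN 0.56 ± 0.41 (adjusted p = 0.908). It was called over carriers without TRAF2LC replicate 4, at 1.16 (adjusted p = 0.0282). Irf7, a transcription factor that amplifies interferon production, was detected on 4 TRAF2LC arrays and 0 of the other 12. It was at least 2.03-fold higher in TRAF2LC against control (adjusted p = 0.0379). Ifit2, of the same family as Ifit3, had log2 differences of 2.24 ± 0.51 without IkBaDN (adjusted p = 0.0474) and 0.07 ± 0.51 with it (adjusted p = 0.995), the first being 1.51 ± 0.30 without TRAF2LC replicate 4 (adjusted p = 0.0256). Lgals3bp, a secreted galectin-binding glycoprotein, stood at 1.15 ± 0.28 and 0.25 ± 0.28 (adjusted p = 0.0665 and 0.947), the first being 0.75 ± 0.15 without TRAF2LC replicate 4 (adjusted p = 0.0287). The interferon-inducible GTPase genes Gbp2, Gbp3, Igtp and Irgm1 stood at 0.41, 1.27, 1.33 and 0.86 without IkBaDN and at -0.37, -0.39, -0.56 and -0.36 with it. Single arrays carried much of both sides. Without TRAF2LC replicate 4 the values without IkBaDN were 0.05, 0.71, 0.61 and 0.37. Without IkBaDN replicate 2 the values with IkBaDN were -0.02, -0.10, 0.00 and -0.22. Relative to the mean of its group, Igtp read -0.56, 1.68, -1.0 and -0.12 on the IkBaDN arrays. None of these interferon genes was called in the test of the difference between backgrounds, in which Usp18 had an unadjusted p of 0.0039 (adjusted p = 0.455).

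Genes of the non-canonical NF-kB branch stood higher in carriers without a call. Of 9 tested members 7 were higher, with a median of 0.31, and 5 reached an unadjusted p under 0.05 in the upward direction against 5.59% of all genes. The median was 0.19 without IkBaDN and 0.21 with it, and 0.22 over carriers when TRAF2LC replicate 4 was left out. Without that array and IkBaDN replicates 2 and 3 it was 0.16 over carriers and 0.09 with IkBaDN, each with 5 of 9 higher. Of the 9 members 5 had the same direction in both backgrounds (55.6%, against 55.2% of all genes), all of them upward. The median over carriers stayed above 0 in every alternative, between 0.15 and 0.60. Map3k14, which encodes the kinase NIK, had values of 5.74, 6.47 and 7.02 in carriers (lowest, median and highest), against 5.17, 5.63 and 6.30 in non-carriers. The ranges overlapped, and the probe was detected on 8 of 8 carrier arrays and 4 of 8 non-carrier arrays. Its log2 difference was 0.77 ± 0.18 (adjusted p = 0.119), with 0.73 ± 0.26 without IkBaDN and 0.82 ± 0.26 with it (adjusted p = 0.296 and 0.807). On IkBaDN replicates 1 to 4 it read 6.23, 5.17, 5.47 and 6.30. Replicates 2 and 3, the arrays of lowest signal, lay under their detection limits of 5.81 and 5.73, so the value with IkBaDN rests in part on background signal.

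Relb, the DNA-binding subunit of the non-canonical dimer and itself an NF-kB target, differed more between IkBa backgrounds. It read 7.84, 7.39, 7.42 and 8.13 in TRAF2LC hearts, against 6.68, 6.87, 6.03 and 6.38 in controls. In double transgenic hearts it read 6.07, 5.89, 6.04 and 5.64, against 5.80, 5.16, 5.71 and 5.85 in IkBaDN hearts. TRAF2LC lay above control without overlap, while double transgenic and IkBaDN overlapped. The log2 difference was 0.74 ± 0.18 over all carriers (adjusted p = 0.119), 1.20 ± 0.20 without IkBaDN (adjusted p = 0.00648) and 0.28 ± 0.20 with it (adjusted p = 0.908). The difference between the backgrounds had an unadjusted p of 0.00565 (adjusted p = 0.562). Nfkb2, which encodes the partner of RELB, was detected on 0 arrays and was not tested.

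Other members stood on the side of receptors and ligases. Ltbr, the lymphotoxin beta receptor, had a difference of 0.45 ± 0.17 over carriers (adjusted p = 0.374), with 0.19 without IkBaDN and 0.70 with it. Birc2, which encodes the TRAF2 partner cIAP1, stood at 0.31 ± 0.11 (adjusted p = 0.322), and its other tested probe at 0.13. Tnfrsf12a, the receptor of the cytokine TWEAK, stood at 0.34 ± 0.16 (adjusted p = 0.499). The chemokine gene Cxcl12 stood at -0.13 and the cytokine gene Tnfsf13b at -0.09.

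**Figure D3:**
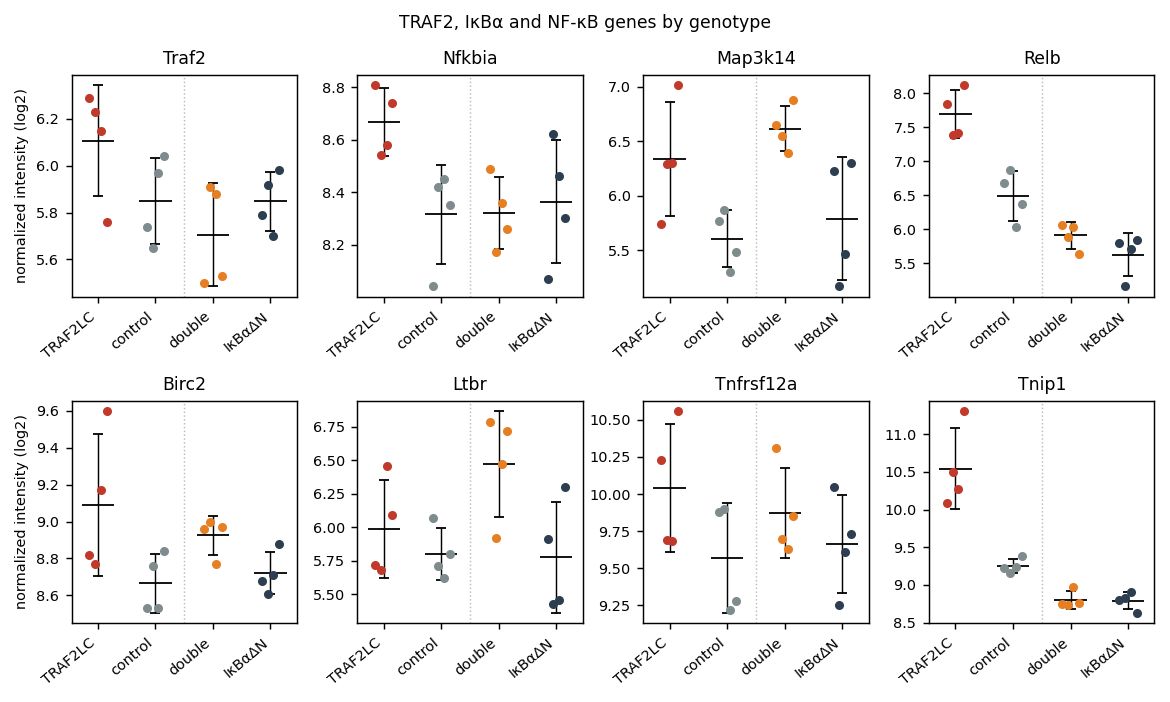
Normalized log2 intensity of Traf2, Nfkbia and 6 genes of NF-kB signalling on each array. Points are arrays, bars the mean and error bars the SD (n = 4), each TRAF2 genotype stands left of its partner, and the vertical axis differs between panels. Nfkbia, Relb and Tnip1 separate TRAF2LC from control but not double transgenic from IkBaDN. Map3k14 has differences of 0.73 and 0.82 in the 2 backgrounds, the second in part against IkBaDN replicates 2 and 3, where its probe was not detected.

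Canonical NF-kB targets and feedback genes showed no shared shift. Of 13 tested members 8 were higher, the median was 0.16, and it was 0.12 without IkBaDN and -0.02 with it. Members with an unadjusted p under 0.05 were 2 higher and 1 lower, against 5.59% and 4.82% of all genes, and 0 were called. Tnip1, whose protein works with A20 to restrain NF-kB, stood at 0.65 ± 0.20 over carriers (adjusted p = 0.248), made up of 1.29 ± 0.19 without IkBaDN (adjusted p = 0.002) and 0.01 ± 0.19 with it (adjusted p = 0.996). Its interaction had an adjusted p of 0.111, and of 0.0151 without TRAF2LC replicate 4. The other tested Tnip1 probes stood at 0.5, -0.01 and 0.51 over carriers. Cxcl1, a neutrophil chemokine, stood at -0.46 ± 0.15 (adjusted p = 0.258), lower in both backgrounds (-0.31 and -0.62). Of 19 tested genes of TNF receptor and TRAF signalling 9 were higher, with a median of 0.00. Their member with the smallest p was Traf6, another TRAF adapter, at -0.28 ± 0.12 (adjusted p = 0.441).

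Snai3 showed the largest decrease of the 7 calls. This member of the Snail family of zinc finger repressors read 7.97, 8.0, 7.92 and 6.74 in TRAF2LC hearts, against 8.86, 8.59, 8.43 and 8.65 in controls. It read 8.01, 7.36, 7.65 and 6.68 in double transgenic hearts, against 8.62, 8.48, 8.82 and 8.71 in IkBaDN hearts. Every carrier lay below every non-carrier, and 1 array of each TRAF2 genotype lay far below the others. Snai3 fell to 0.466-fold (log2 difference -1.10 ± 0.19, adjusted p = 0.0274), with -0.97 ± 0.27 without IkBaDN (adjusted p = 0.139) and -1.23 ± 0.27 with it (adjusted p = 0.393). It was not called without control replicates 1, 2 or 4, without any 1 of the 4 IkBaDN replicates or without double transgenic replicate 2 (highest adjusted p 0.0738). It was also called with IkBaDN when TRAF2LC replicate 4 was left out (-1.23 ± 0.20, adjusted p = 0.0465).

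Lypd2, which encodes a small protein of the Ly6 and uPAR domain family, had values of 5.98, 6.68 and 7.33 in carriers (lowest, median and highest), against 6.85, 7.32 and 7.87 in non-carriers. Carriers and non-carriers overlapped, with double transgenic hearts near controls. It fell by 0.73 ± 0.13 on the log2 scale (adjusted p = 0.0274), by 0.86 ± 0.18 without IkBaDN (adjusted p = 0.03) and by 0.61 ± 0.18 with it (adjusted p = 0.801). The call without IkBaDN was lost without TRAF2LC replicate 4 (adjusted p = 0.115). The predicted gene 1700029P11Rik read 7.24, 7.59 and 7.68 in carriers, against 7.85, 8.04 and 8.24 in non-carriers. These ranges did not overlap, and it fell by 0.48 ± 0.08 (adjusted p = 0.0274). The unnamed probe read 7.47, 7.59 and 7.83 in carriers, against 6.93, 7.17 and 7.36 in non-carriers, and rose by 0.48 ± 0.08 (adjusted p = 0.0238). Without single arrays these 3 calls were lost in 11, 10 and 3 of 16 cases. The 7 probes kept their direction in every alternative in which they were tested, with calls in 16 of 32 for 1700029P11Rik, 15 of 32 for Lypd2 and 27 of 32 for the unnamed probe.

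The 7 calls were read within the sets of arrays that the files and labels define. The first and the last 8 columns of the deposited table hold 2 arrays of each genotype each, and the sources used here do not say what the sets stand for. Deviations from the genotype means correlated with a median of 0.22 within a set and -0.21 between sets. Dlg2 is left out here, since against undetected arrays its differences are bounds. The difference was 3.07 and 1.35 for Isg15, 2.67 and 1.62 for Ifit3, and -1.34 and -0.86 for Snai3. It was -0.64 and -0.82 for Lypd2, -0.41 and -0.55 for 1700029P11Rik, and 0.53 and 0.44 for the unnamed probe. Direction was the same in both sets in each case, though the arrays are those that gave the calls. The descriptions also carry tag numbers in 3 runs, 535 to 538, 617 to 624 and 663 to 675, which hold 1 carrier of 4 arrays, 2 of 6 and 5 of 6. Within these runs, 1 double transgenic array against 2 IkBaDN arrays, 2 TRAF2LC against 2 controls, and 2 TRAF2LC against 1 control could be set side by side. Over them Isg15 differed by 1.24, 3.82 and 1.23, Ifit3 by 1.09, 3.75 and 1.71 and Snai3 by -0.64, -1.37 and -0.47. With the runs as a block 19 probes were called, 13 higher and 6 lower. They held Dlg2, Isg15, Ifit3 and 1700029P11Rik, while Snai3 (adjusted p = 0.0626), Lypd2 (adjusted p = 0.0688) and the unnamed probe ILMN_1223552 (adjusted p = 0.053) lost their calls.

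Genes outside the calls also separated all carriers from all non-carriers. Tubb2b, a beta tubulin, read 7.98, 8.12 and 8.69 in carriers (lowest, median and highest), against 7.30, 7.64 and 7.96 in non-carriers, a difference of 0.50 ± 0.11 (adjusted p = 0.0979). Ing4, a chromatin reader of the inhibitor of growth family, read 7.53, 7.74 and 7.85 in carriers, against 7.14, 7.42 and 7.52 in non-carriers, a difference of 0.32 ± 0.08 (adjusted p = 0.119). Their other probes stood at 0.21 and 0.03, so the genes are supported by 1 probe each. On the lower side Lrg1, a secreted leucine-rich glycoprotein, read 8.52, 9.46 and 9.78 in carriers, against 9.79, 9.92 and 9.99 in non-carriers (difference -0.51 ± 0.13, adjusted p = 0.141). Ier5l, an immediate early response family gene, stood at -0.51 ± 0.12 (adjusted p = 0.119). Ccdc126 and P2ry14, the receptor for UDP-glucose, stood at -0.28 ± 0.08 each (adjusted p = 0.199 and 0.219). The other tested P2ry14 probe stood at -0.11. None of these passed.

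The TRAF2 differences found without IkBaDN were for the most part small with it. In TRAF2LC against control 98 of 9449 probes were called (1.04%), 70 higher and 28 lower, with 67 and 3 of 70 under median scaling and 70 and 9 of 79 for the authors' scaled values, and 40 to 61 when control replicate 1, 2, 3 or 4 or TRAF2LC replicate 2 or 4 was left out. In double transgenic against IkBaDN 1 probe, that of Dlg2, was called (0.0106%), although 541 probes (5.73%) had an unadjusted p under 0.05. Without IkBaDN replicate 3 it was 2 probes and without TRAF2LC replicate 4 it was 4. Of the 98 probes 71 had the same direction with IkBaDN (72.4%), against 55.0% of all probes. Of the 98, 12 reached an unadjusted p under 0.05 with IkBaDN (12.2% against 5.73%), 11 in the same direction and 1 in the other. The median size of the 98 differences was 0.96 without IkBaDN, a value inflated by choosing them there, and 0.08 in the same direction with it. Both comparisons share no array. Across all 9449 probes the 2 differences correlated with Pearson's r of 0.17 and Spearman's rho of 0.14, points that share arrays within each axis and are not independent.

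A call in 1 background and none in the other does not show a difference between them. The test of that difference, the interaction, called 2 of 9449 probes (0.0212%), both with a smaller TRAF2 difference in the presence of IkBaDN, and 593 probes had an unadjusted p under 0.05. Without TRAF2LC replicate 1 it called 7 and without TRAF2LC replicate 4 it called 10. Tsc22d4, which belongs to the TSC22 domain genes, read 11.08, 10.74, 10.64 and 11.15 in TRAF2LC hearts, against 8.49, 8.45, 8.11 and 8.72 in controls. It read 8.49, 8.41, 8.12 and 8.55 in double transgenic hearts, against 8.10, 8.71, 8.20 and 8.23 in IkBaDN hearts. The TRAF2LC hearts stood alone above the other 3 genotypes. The log2 difference was 2.46 ± 0.17 without IkBaDN and 0.08 ± 0.17 with it, and the interaction -2.38 ± 0.23 (adjusted p = 0.000142). The additive model gives 1.27 ± 0.30 (adjusted p = 0.119), a mean that describes neither background. An unnamed probe behaved likewise, with 3.53 ± 0.25, 0.51 ± 0.25 and an interaction of -3.02 ± 0.36 (adjusted p = 0.00101). With column sets and tag runs as blocks the interaction of that probe, ILMN_2889832, was lost (adjusted p = 0.124), while that of Tsc22d4 was kept. Myh7, which encodes the slow myosin used by the ventricle before birth, stood at 2.59 ± 0.39 and 0.17 ± 0.39, with an interaction that did not pass (adjusted p = 0.167), and at 1.38 ± 0.39 over all carriers (adjusted p = 0.199). Pde1b, a calmodulin-dependent phosphodiesterase, stood at 1.88 ± 0.25 and -0.05 ± 0.25 (interaction adjusted p = 0.11, and 0.0299 without TRAF2LC replicate 4).

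**Figure D4:**
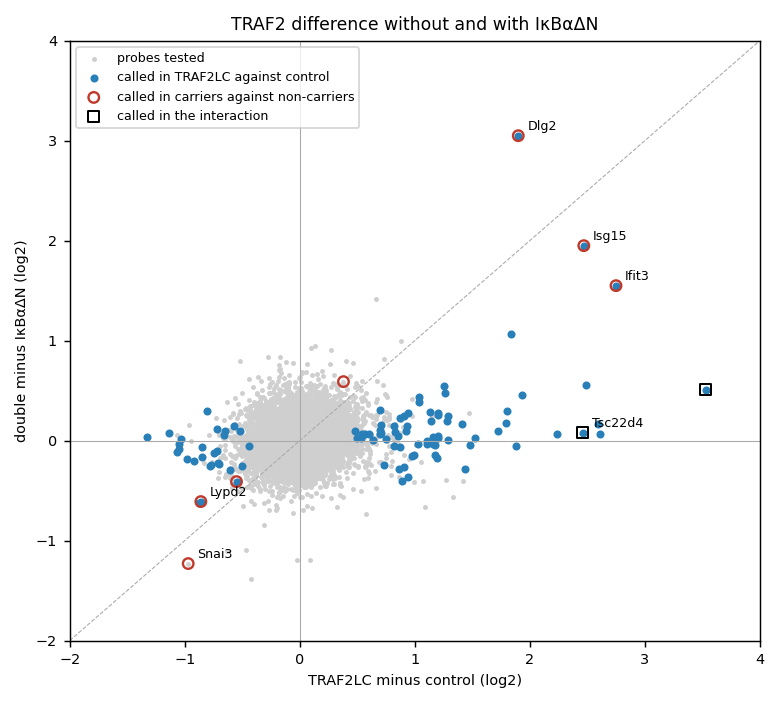
Log2 difference of each of the 9449 probes in TRAF2LC minus control (horizontal axis) and double transgenic minus IkBaDN (vertical axis), with the line of equal differences dashed. Blue points are the 98 probes called without IkBaDN, red rings the 7 called in carriers against non-carriers and black squares the 2 called in the interaction. Most blue points lie along the horizontal axis, and Dlg2, plotted at its fitted differences although undetected in non-carriers, lies above the line.

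Immune cell markers were read beside the interferon genes. Of 10 tested macrophage markers 9 were higher in carriers, with a median of 0.17, of 0.41 without IkBaDN and 0.02 with it. Without TRAF2LC replicate 4 the median was 0.10 over carriers and 0.25 without IkBaDN. Their summed linear intensity ran from 6390 to 9925 in TRAF2LC hearts, against 5230 to 5926 in controls, and from 5363 to 6191 in double transgenic hearts, against 5364 to 6267 in IkBaDN hearts. On TRAF2LC replicates 1 to 4 the median was 0.32, 0.16, 0.27 and 0.96, so the array with the highest interferon genes also had the highest macrophage markers. Adgre1, Cd163, Itgam and Lyve1 were detected on too few arrays to be tested. C1qc, a complement subunit made by macrophages, stood at 0.38 ± 0.12 over carriers (adjusted p = 0.248) and Fcer1g at 0.30 ± 0.12 (adjusted p = 0.441). Cx3cr1, a chemokine receptor of monocytes and macrophages, stood at 0.45 ± 0.15 over carriers (adjusted p = 0.294), with 0.85 ± 0.17 without IkBaDN (adjusted p = 0.0255) and 0.05 ± 0.17 with it (adjusted p = 0.991). The interaction had an adjusted p of 0.481, and without TRAF2LC replicate 4 the call without IkBaDN was lost (adjusted p = 0.0914). The part of immune cells in the interferon values was not tested. In whole ventricle, fewer cells of a type and less RNA per cell cannot be told apart.

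Antigen presentation and immunoproteasome genes stood higher in TRAF2LC hearts without a call, and no difference between backgrounds passed. Of 16 tested genes 16 were higher in TRAF2LC against control and 1 was higher in double transgenic against IkBaDN, with medians of 0.41 and -0.19. Over all carriers 12 were higher, the median was 0.12, and 0.02 without TRAF2LC replicate 4. On the single arrays the median was 0.16, 0.22, 0.24 and 1.13 in TRAF2LC hearts, against -0.02 to 0.05 in controls. It was -0.07, -0.17, -0.19 and -0.30 in double transgenic hearts, against -0.38 to 0.44 in IkBaDN hearts, where the highest value is IkBaDN replicate 2. Psmb10, an immunoproteasome subunit, stood at 0.39 ± 0.17 over carriers (adjusted p = 0.455). No member was called in either background or in the interaction, where the lowest adjusted p was 0.282, for Tap1, a peptide transporter. Without IkBaDN replicate 2 the median with IkBaDN was -0.05 and 4 of 16 were higher, and without TRAF2LC replicate 4 the median without IkBaDN was 0.09 and 12 of 16 were higher.

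Extracellular matrix genes stood higher in carriers in both backgrounds without a call. Of 22 tested genes 15 were higher, with a median of 0.18, of 0.18 without IkBaDN and 0.10 with it, and 13 were higher in both. An unadjusted p under 0.05 was reached by 9 higher and 1 lower, against 5.59% and 4.82% of all genes. Col4a1, a basement membrane collagen, read 11.48, 11.58 and 11.81 in carriers (lowest, median and highest), against 10.97, 11.25 and 11.68 in non-carriers. Its carriers sat in the upper part of an overlapping range, with a difference of 0.33 ± 0.09 (adjusted p = 0.154). Sparc, a collagen-binding matrix protein, stood at 0.26 ± 0.09 (adjusted p = 0.326), Col1a1, of fibrillar collagen, at 0.48 ± 0.19 (adjusted p = 0.395) and Timp1, an inhibitor of matrix proteases, at 0.36 ± 0.12 (adjusted p = 0.288). Tgfb3, a growth factor of the TGF-beta family, stood at 1.14 ± 0.20 without IkBaDN (adjusted p = 0.00648) and 0.20 ± 0.20 with it (adjusted p = 0.938). Thbs2, a thrombospondin of the matrix, stood at -0.38 ± 0.07 (adjusted p = 0.0692), lower in both backgrounds (-0.50 and -0.25), and was called with the column sets as a block (adjusted p = 0.0368). Its call without IkBaDN (adjusted p = 0.0199) was lost without TRAF2LC replicate 4 (adjusted p = 0.0642). Fibroblast markers had a median of -0.03, with 4 of 10 higher, or 0.03 without TRAF2LC replicate 4. Their median was 0.07 without IkBaDN and 0.03 with it, and 3 higher and 0 lower reached an unadjusted p under 0.05.

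Cell cycle genes stood higher in 11 of 14 cases, with a median of 0.21, of 0.28 without IkBaDN and 0.07 with it. Cdkn1a, the cell cycle inhibitor p21, had a difference of 0.64 ± 0.16 (adjusted p = 0.119), with 0.72 and 0.56 in the 2 backgrounds. Mcm2, a subunit of the replicative helicase, stood at 0.50 ± 0.15 (adjusted p = 0.248) and Birc5, survivin, at 0.47 ± 0.15 (adjusted p = 0.275). The Birc5 probe was detected on 4 of 8 non-carrier arrays, and the other Birc5 probes stood at 0.06 and 0.31. None of these genes was called.

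Genes of energy metabolism and of ion handling stood slightly lower, except under median scaling over all probes. Of 30 fatty acid oxidation genes tested 25 were lower, with a median of -0.13 that turned to 0.10 under median scaling, which is -0.14 relative to all genes. In both backgrounds 16 of the 30 were lower, against 1898 of 6902 genes. The median was -0.20 without IkBaDN and -0.07 with it, and -0.53 on TRAF2LC replicate 4 against -0.20, 0.00 and 0.01 on the other TRAF2LC arrays. Leaving that array out gave -0.08 over carriers and -0.08 without IkBaDN. Acaa2, the last enzyme of the mitochondrial spiral, stood at -0.35 ± 0.12 (adjusted p = 0.304) and Slc25a20, the acylcarnitine carrier, at -0.22 ± 0.07 (adjusted p = 0.288), or 0.00 under median scaling. Of 36 oxidative phosphorylation genes 29 were lower, with a median of -0.09, or 0.05 under median scaling (-0.19 relative to all genes), and 21 were lower in both backgrounds. Of 31 genes of calcium handling and ion channels 26 were lower, with a median of -0.12, or 0.10 under median scaling (-0.14 relative to all genes), and 18 were lower in both. Without TRAF2LC replicate 4 the median over carriers was -0.06 for oxidative phosphorylation (11 of 36 higher) and -0.10 for ion handling (5 of 31 higher). In these 3 lists 5, 1 and 5 members reached an unadjusted p under 0.05 on the lower side, against 4.82% of all genes, and 0 were called.

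Among the ion channels, Cacna1h, a T-type calcium channel, had values of 7.22, 7.75 and 7.83 in carriers (lowest, median and highest), against 7.75, 8.16 and 8.22 in non-carriers. The ranges overlapped through IkBaDN replicate 3, at 7.75, while the other non-carriers lay above every carrier. The difference was -0.45 ± 0.10 (adjusted p = 0.0979). Cacna1g, another T-type channel gene, stood at -0.30 ± 0.11 (adjusted p = 0.322). Kcnv2, a modifying subunit of potassium channels, stood at -0.92 ± 0.21 without IkBaDN (adjusted p = 0.0483) and -0.20 ± 0.21 with it (adjusted p = 0.947). Aqp4, a water channel, stood at -0.75 ± 0.14 over carriers (adjusted p = 0.0552), with -0.88 ± 0.20 without IkBaDN (adjusted p = 0.0474) and -0.62 ± 0.20 with it (adjusted p = 0.807), its probe being detected on 2 of 4 TRAF2LC arrays. Without TRAF2LC replicate 4, Aqp4 was called over carriers (adjusted p = 0.049) and not without IkBaDN (adjusted p = 0.177), and Kcnv2 lost its call without IkBaDN (adjusted p = 0.126).

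**Figure D5:**
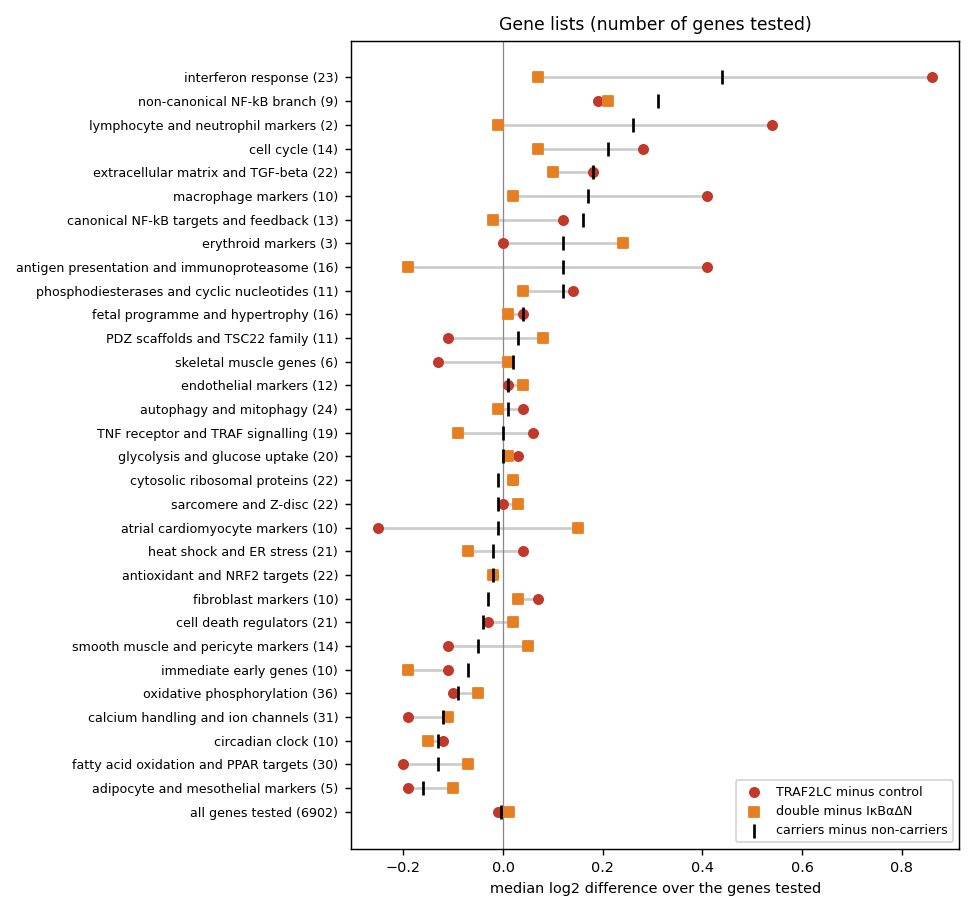
Median log2 difference of each of the 31 gene lists and of all genes tested, with the number of genes tested in brackets. Red circles are TRAF2LC minus control, orange squares double transgenic minus IkBaDN and black ticks carriers minus non-carriers. The interferon list has medians of 0.86 and 0.07 in the 2 backgrounds, the non-canonical NF-kB list 0.19 and 0.21, and fatty acid oxidation, ion handling and circadian lists lie left of 0 in both, although median scaling over all probes puts their carrier medians at 0.10, 0.10 and 0.09.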

How the data were processed

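The deposited intensity table holds 1 background-subtracted intensity per probe and array, per the file headers, with 14378 of 25697 probes below 0 on at least 1 array. The authors deposited a detection p-value for every intensity. Their value table repeats these intensities after multiplication by 1 factor per array. BeadStudio and GenomeStudio are named, without versions, per the submitters' processing notes. Symbols came from the probe table (23978 probes with 1 symbol, 1719 unnamed), 23962 matched to RefSeq genes.

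Intensities were corrected with nec of limma 3.58.1 (R 4.3.3, offset 16) from the detection p-values, quantile normalized and set on the log2 scale. Additive model: 13 residual and 4.64 prior degrees of freedom; 4 genotype means: 12 and 4.64. Scripts were tested on simulated data. Arrays were grouped by genotype label, and their number limits precision.

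The members and lists were chosen with earlier results of these data known. Genes named by rule are the targets Traf2 and Nfkbia, Myh6, Nfkb2, Relb, shared genes, up to 4 called members per list or the member with the smallest p, by the brightest probe. Other genes were chosen after their values were seen. Alternatives covered background correction, scaling, filter, model, weights, blocks and single arrays.

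Deviations from genotype means correlated with a median of 0.25 between arrays of the same replicate number and -0.12 otherwise, over 0.1 in 16 of 24 pairs. Since not every pair was over 0.1, the numbers were not taken to pair arrays.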

Additional observations from a re-analysis of the deposited data

Results flagged for a closer look

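In a group of 4 arrays, an array was singled out when its gap to the next value took up most of the range of its group. This held in 23 of 374 groups (6.15%), and chance gives about 1 in 20 (5%). The groups share arrays and are not independent, so the nearness of these shares is only a rough guide. Of the 23, 9 were TRAF2LC replicate 4. On that array the log2 values were 11.48 for Acaa2 (others 12.15 to 12.20), 10.11 for C1qc (9.33 to 9.37), 7.83 for Dhx58 (5.97 to 6.18), 12.30 for Psmb10 (11.10 to 11.27) and 6.74 for Snai3 (7.92 to 8.0). Its list medians were 2.16 for interferon genes (others 0.47 to 0.74), 1.13 for antigen presentation (0.16 to 0.24), 0.42 for canonical NF-kB targets (0.09 to 0.13) and 0.03 for the fetal programme (0.11 to 0.12).

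Double transgenic arrays stood out at 5.89 for Aqp4 on replicate 1, at 7.56 for Kcnv2 and 5.67 for P2ry14 on replicate 2, and at 6.30 for Lep, 8.97 for Tnip1 and -0.07 for the interferon median on replicate 3. On replicate 4 they stood out at 7.93 for Dpysl3, 5.29 for a probe with no gene name and -0.01 for the median of smooth muscle and pericyte markers. Control replicate 2 stood out at 7.13 for Ifit3, 4.71 for Irf7 and 7.20 for Tgfb3, control replicate 4 at 12.70 for Lamp1, and IkBaDN replicate 2 at 7.09 for the unnamed probe of the interaction.

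The TRAF2 difference itself differed between backgrounds for Tsc22d4, by -2.38 (0.08 with and 2.46 without IkBaDN, interaction adjusted p = 0.000142, limma), and for that unnamed probe, by -3.02 (0.51 and 3.53, adjusted p = 0.00101).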

How the results depend on the processing

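Against 7 probes called in carriers against non-carriers, a nec offset of 50 called 12, median scaling 105, no filter 2, the 4 genotype means 36, array weights 22, the tag runs as a block 19, runs and column sets as blocks 13 and the 3 arrays that stand apart left out 15. For shared differences (6) these counts were 9, 34, 2, 12, 13, 6, 3 and 15. For the 98 calls of TRAF2LC against control, no filter called 54, detection on all arrays 60, the 2 genotypes alone 35, both blocks 59 and the 3 arrays left out 55. For double transgenic against IkBaDN (1), median scaling called 3, detection on all arrays 0 (limma), where the Dlg2 probe was not tested, and weights, both blocks and the 2 genotypes alone 2 each. For the interaction (2), no nec step, median scaling and scaling over tested probes called 4, the authors' scaled values and the column block 5 and weights 18. With the replicate number as a block 7 probes were called in carriers, 6 shared, 116 without IkBaDN, 1 with it and 4 in the interaction. Without 1 array these 5 counts ran from 1 to 14, 1 to 11, 40 to 94, 1 to 4 and 2 to 10, the last 2 being highest without TRAF2LC replicate 4. Directions turned for Cdh5 (0.16, median scaling), Ciart (0.09, tag runs), Myh6 (-0.07 with authors' scaled values and -0.14 with scaling over tested probes), Slc25a20 (0.00, median scaling) and Traf2 (-0.04, scaling over tested probes), 0 of them called. The causes were not tested. Both blocks, scaling over tested probes and the arrays left out together were chosen after seeing the data. The number of arrays, and signals near background such as Dlg2 and Irf7, limit what could be detected.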

Other observations

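Some genes of stress signalling stood lower in carriers without a call, though their lists went both ways, with 5 of 10 immediate early genes and 9 of 21 heat shock and endoplasmic reticulum stress genes higher. The genes named here were chosen after their values were seen. Dusp1, a phosphatase that switches off MAP kinases, read 9.0, 9.31 and 9.87 in carriers (lowest, median and highest), against 9.46, 9.85 and 10.14 in non-carriers. Its difference was -0.49 ± 0.13 (adjusted p = 0.141, limma), with -0.50 and -0.47 in the 2 backgrounds. Herpud1, a component of the degradation of misfolded proteins in the endoplasmic reticulum, stood at -0.33 ± 0.08 (adjusted p = 0.141), with -0.32 and -0.33. Egr1, an immediate early transcription factor, stood at -0.45 ± 0.18 (adjusted p = 0.428). Of 10 clock genes tested 8 were lower in both backgrounds, with a median of -0.13, or 0.09 under median scaling (-0.15 relative to all genes). Ciart, a repressor of the clock, ranged from 5.48 to 9.22 in carriers, against 7.44 to 9.35 in non-carriers, and stood at -0.90 ± 0.43 (adjusted p = 0.504), or 0.09 with the tag runs as a block.

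Lamp1, a lysosomal membrane protein, read 12.57, 12.88 and 13.22 in carriers, against 12.26, 12.44 and 12.74 in non-carriers, a difference of 0.43 ± 0.11 (adjusted p = 0.119). Pfkp, a phosphofructokinase subunit, stood at 0.36 ± 0.10 (adjusted p = 0.219), Grk5, a kinase of G protein-coupled receptors, at 0.71 ± 0.15 (adjusted p = 0.0822) and Dpysl3, a cytoskeletal protein of growing axons, at 0.58 ± 0.11 (adjusted p = 0.0552). The Grk5 probe was detected on 0 of 4 IkBaDN arrays. Among genes known from hypertrophy, Rcan1, an inhibitor of calcineurin, stood at 0.29 ± 0.10 (adjusted p = 0.311) and Meox1 at 0.49 ± 0.15 (adjusted p = 0.237). The other tested Rcan1 probe stood at 0.9. Acot1, an acyl-CoA thioesterase, stood at -1.14 ± 0.20 without IkBaDN (adjusted p = 0.00853) and 0.08 ± 0.20 with it (adjusted p = 0.988). Ces1d, a carboxylesterase, stood at -0.85 ± 0.19 and -0.16 ± 0.19 (adjusted p = 0.0379 and 0.947), the first being lost without TRAF2LC replicate 4 (adjusted p = 0.102).

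The median difference was between -0.05 and 0.04 for the fetal programme, sarcomere, cell death, autophagy, antioxidant, heat shock, ribosomal protein, glycolysis, skeletal muscle, smooth muscle and endothelial lists. For atrial genes it was -0.01, made up of -0.25 without IkBaDN (2 of 10 higher) and 0.15 with it (9 of 10 higher). It was -0.07 for immediate early genes, 0.12 for phosphodiesterases, 0.12 for 3 erythroid genes, 0.26 for 2 lymphocyte and neutrophil genes (0.08 without TRAF2LC replicate 4) and -0.16 for 5 adipocyte and mesothelial genes. Scaling over the tested probes turned the erythroid value to -0.14, and under median scaling the adipocyte value was -0.21 and that of immediate early genes -0.04 relative to all genes.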
